A study of Mus musculus with 20 samples.

Results

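The coagulation and complement genes described here are 41 listed mouse genes whose products circulate in plasma as clotting factors, fibrinogen chains, clotting inhibitors, fibrinolytic proteins and complement components, together with the plasma proteins Ahsg (fetuin-A) and Vtn (vitronectin). A listed gene was taken as measured when a probe set of the array carried its symbol and no other, and where several did, the one whose values averaged highest across the 20 arrays was used. By this rule 39 of the 41 genes were measured, of 18193 genes on the arrays, 22 of them in coagulation and 17 in complement. Cpb2 and C3 were not analysed here, and C1s was read as C1s1.

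Expression was measured on Affymetrix arrays in total RNA from snap-frozen liver of male C57BL/6 mice, 5 arrays in each of 4 groups. All groups carry the conditional APCko genotype, so no group without the allele was analysed here, and the labels do not name the promoter of the recombinase. Per the labels' protocols, each animal had 1 dose of 0.75 mg tamoxifen at 6 weeks of age and from 1 week later was fed for 9 months. The groups are carcinomas (APCko_Carcinoma) from mice without phenobarbital, adenomas (APCko_Adenoma) from mice fed 0.05% phenobarbital, non-tumour liver of phenobarbital-fed mice (PB_NT, phenobarbital liver below) and non-tumour liver of mice without it (H2O_NT, untreated liver below). The series' design text names an initiating dose of DEN that the sample protocols do not mention, and H2O in the group name stands beside standard chow in the protocols. Tumour stage and diet differ together between the tumour groups. The labels do not say that the arrays of a group came from separate mice, so p-values measure the spread between these arrays, which may be technical.

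Hepatocytes make most of the clotting factors and complement components of plasma. In clotting, a chain of proteases ends in thrombin, which turns fibrinogen into fibrin, and several of these proteases need vitamin K-dependent carboxylation. Complement starts through the classical, lectin or alternative route and ends in the membrane attack complex built from the terminal components. The C1q chains, which start the classical route, are made mainly by macrophages and not by hepatocytes.

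Apc itself had log2 values of 10.68 ± 0.17 in carcinomas, 9.06 ± 0.19 in adenomas, 8.54 ± 0.12 in phenobarbital liver and 8.84 ± 0.13 in untreated liver (mean ± SD, n = 5 each). The labels do not name the deleted part of the gene, so this level checks nothing about the knockout. Of 11 listed hepatocyte markers, 9 were measured, and their mean log2 value per array was 7.12 to 10.87 in carcinomas, 12.37 to 13.18 in adenomas, 13.35 to 13.46 in phenobarbital liver and 13.46 to 13.67 in untreated liver. All 9 were lower in carcinomas than in untreated liver, with a median log2 difference of -3.75, and in adenomas only Cps1 and Ass1 were lower than in phenobarbital liver among these 9. In bulk tissue, fewer hepatocytes and less RNA per hepatocyte cannot be told apart, and the part of either in the results below was not tested. The plot of members beside cell type markers places both quantities of each array together.

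**Figure D1:**
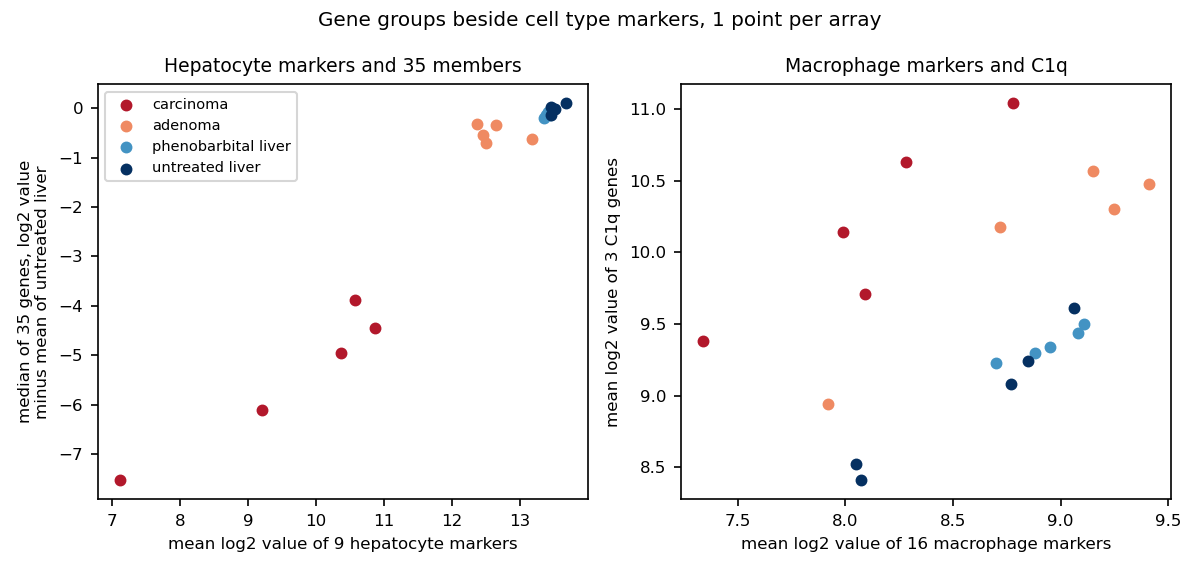
Each point is 1 array. Left, the horizontal axis is the mean log2 value of 9 hepatocyte markers and the vertical axis the median, over 35 members outside C1q and Pros1, of the log2 value minus the untreated-liver mean; the carcinoma arrays spread over -7.53 to -3.88 while the adenoma arrays lie between -0.70 and -0.31. Right, the horizontal axis is the mean log2 value of 16 macrophage markers and the vertical axis that of the 3 C1q genes; the carcinoma arrays reach 9.38 to 11.04 in C1q at marker means of 7.34 to 8.78.

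In carcinomas nearly every gene of the set that hepatocytes are known to express was low. Of the 39 genes, 35 were lower in carcinomas than in untreated liver, 3 were higher and Pros1 did not pass the test (limma, Benjamini-Hochberg adjusted over all genes). Over all genes tested, 37.7% were called lower and 31.5% higher, against 89.7% and 7.69% of the members. The median log2 difference was -5.17 over the members and -0.12 over all genes. The 35 lower members also did not overlap between the groups, where 27.8% of all genes were lower without overlap.

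**Figure D2:**
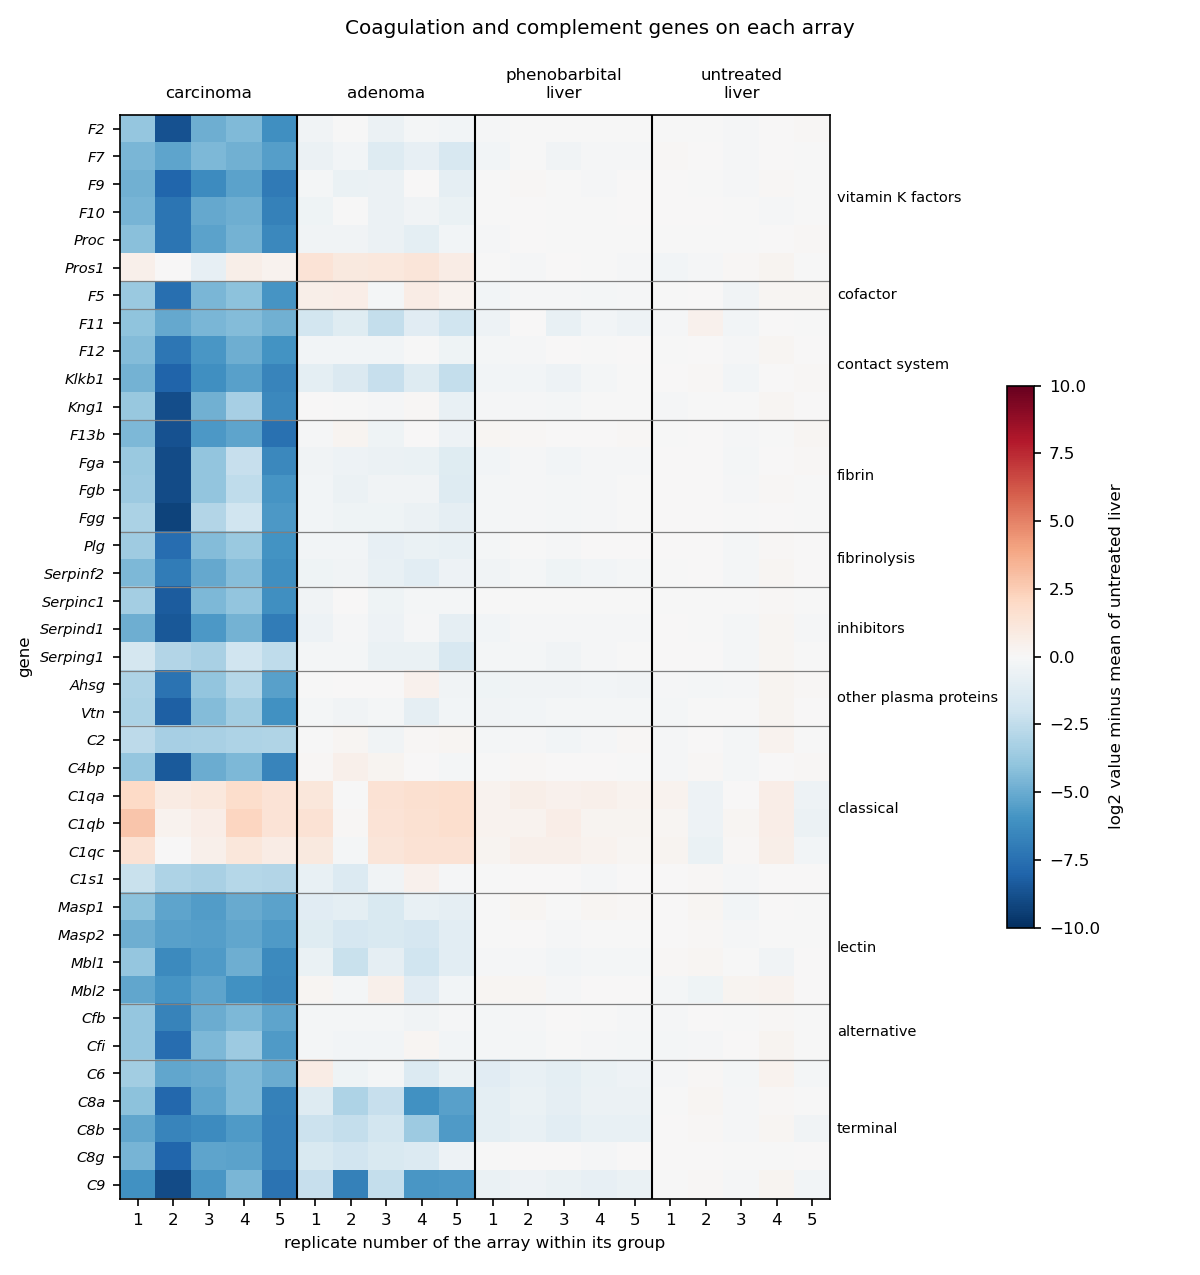
Each row is a gene, ordered by role, and each column an array; colour is the log2 value minus the mean of the 5 untreated-liver arrays. Blue fills the carcinoma columns except for Pros1 and the 3 C1q chains, palest in array 1 and deepest in array 2 for most genes, and in the adenoma columns it is deep only in C8a, C8b and C9 among these genes.

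The vitamin K-dependent clotting proteases all fell in carcinomas. F9 (factor IX, a protease of the intrinsic route) had log2 values of 6.81, 3.66, 5.32, 6.22 and 4.56 in carcinomas, against 11.66, 11.56, 11.47, 11.75 and 11.54 in untreated liver. The highest carcinoma array lay far below the lowest untreated one, and the carcinoma arrays differed far more among themselves than the untreated arrays did. F9 differed by -6.28 ± 0.38 (SE, adjusted p = 2.2e-11, limma) on the log2 scale. F2 (prothrombin) had log2 values of 9.83, 5.04, 8.83, 9.29 and 7.61 in carcinomas, against 13.68, 13.68, 13.63, 13.78 and 13.80 in untreated liver, with array 2 again lowest. F2 differed by -5.59, F10 (factor X) by -5.72, F7 (factor VII) by -4.93 and Proc (protein C, which inactivates factors V and VIII once activated) by -5.61 on the log2 scale, all called lower. The other F10 probe sets gave smaller differences, -4.31 and -4.45. F5 (factor V, the cofactor of factor X) also fell, by 5.17.

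Pros1 (protein S, the cofactor of activated protein C) stood apart from its vitamin K-dependent relatives. Its log2 values were 9.95, 9.48, 8.60, 10 and 9.79 in carcinomas, against 9.14, 9.35, 9.53, 9.72 and 9.39 in untreated liver. The ranges overlapped, with carcinoma array 3 lowest of all. Pros1 differed by 0.14 ± 0.20 (SE, adjusted p = 0.54, limma) on the log2 scale, and without carcinoma array 3 it was 0.38 with an adjusted p of 0.015 (limma).

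Contact-system and fibrin genes fell without exception among those measured. Klkb1 (plasma prekallikrein, which activates factor XII and frees bradykinin) had log2 values of 7.22, 3.96, 5.79, 6.54 and 5.34 in carcinomas, against 12, 12.05, 11.69, 11.96 and 12.05 in untreated liver. The untreated arrays were tightly grouped, and every carcinoma array was below them. Klkb1 differed by -6.18 ± 0.41 (SE, adjusted p = 6.9e-11, limma) on the log2 scale. F12 (factor XII) differed by -5.66, Kng1 (kininogen) by -5.44 (-6.29 on its second probe set) and F11 (factor XI) by -4.57. F13b (the carrier subunit of factor XIII, which cross-links fibrin) had log2 values of 7.50, 3.32, 6.26, 6.74 and 4.54 in carcinomas, against 11.99, 12.02, 11.90, 11.93 and 12.17 in untreated liver. Again no array overlapped, and carcinoma array 2 was the lowest. F13b differed by -6.33 ± 0.51 (SE, adjusted p = 1.2e-09, limma) on the log2 scale.

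The 3 fibrinogen chain genes Fga, Fgb and Fgg, which lie side by side on chromosome 3, showed the widest spread between carcinoma arrays. Fgb, the beta chain, had log2 values of 10.58, 5.29, 10.29, 11.70 and 8.33 in carcinomas, against 14.21, 14.24, 14.13, 14.33 and 14.17 in untreated liver. Carcinoma array 2 was far below the others and array 4 nearest to the untreated liver, still without overlap. The log2 differences were -5.08 for Fga, -4.98 for Fgb and -4.61 for Fgg, each called lower. Fgg had the widest SD of any member in carcinomas, 2.94, where the median SD was 1.24 over members and 0.211 over all genes.

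The carcinoma arrays differed from one another over the whole set. Over the 35 members outside C1q and Pros1, the median log2 difference from the untreated mean was -3.88, -7.53, -4.95, -4.45 and -6.11 in carcinoma arrays 1 to 5. Array 2 was the lowest carcinoma array for 28 of these genes and array 1 the highest for 25. Hepatocyte markers moved with this, at a mean log2 value of 10.58, 7.12, 10.37, 10.87 and 9.21 on the same arrays, and their part in the spread was not tested. Leaving out each array in turn left 35 members called lower. The adenoma arrays lay between -0.70 and -0.31 and those of phenobarbital liver between -0.20 and -0.04.

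The inhibitors and fibrinolytic genes fell by unequal amounts. Serpind1 (heparin cofactor, an inhibitor of thrombin) had log2 values of 7.29, 3.71, 6.39, 7.44 and 5.18 in carcinomas, against 12.17, 12.16, 12.01, 12.40 and 12.08 in untreated liver. No array overlapped. Serpind1 differed by -6.16 ± 0.47 (SE, adjusted p = 5.4e-10, limma) on the log2 scale. Serpinc1 (antithrombin) differed by -5.26, Plg (plasminogen) by -5.05 and Serpinf2 (the plasmin inhibitor) by -5.38. Serping1 (the C1 inhibitor), which many cell types besides hepatocytes make, had log2 values of 11.41, 10.23, 9.87, 11.19 and 10.61 in carcinomas, against 13.17, 13.16, 12.95, 13.36 and 13.09 in untreated liver. It fell by 2.48, the smallest of the 35 falls. Ahsg differed by -4.53 and Vtn by -5.06 (-6.17 on its second probe set).

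Terminal complement held the largest fall of the set. C9, whose product polymerises into the pore of the membrane attack complex, had log2 values of 7.21, 4.32, 7.46, 8.70 and 5.84 in carcinomas, against 13.20, 13.37, 13.17, 13.53 and 13.01 in untreated liver. Every carcinoma array was below every untreated one, array 2 lowest and array 4 highest. C9 differed by -6.55 ± 0.78 (SE, adjusted p = 4e-07, limma) on the log2 scale, which is 93.9-fold lower. C8b had 5.86, 4.49, 4.78, 5.40 and 4.27 in carcinomas, against 11.15, 11.22, 10.98, 11.32 and 10.76 in untreated liver, a gap with no overlap. C8a, C8b and C8g, the chains of the eighth component, differed by -5.71, -6.13 and -6.01, and C6 by -4.59, so all 5 terminal genes were called lower.

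In the other complement routes, the lectin genes Mbl1 and Mbl2 (mannose-binding lectins, which recognise microbial sugars) differed by -5.41 and -5.77 in carcinomas, and Masp2 (a protease that mannose-binding lectin carries) by -5.32. Masp2 had log2 values of 5.78, 5.20, 5.11, 5.47 and 4.99 in carcinomas, against 10.70, 10.78, 10.48, 10.57 and 10.59 in untreated liver. Its carcinoma arrays were far closer together than those of C9 or Fgb, and no array overlapped. The Masp2 carcinoma values lay near the array medians of 5.52 to 5.63. Whether so low a level narrows their spread was not tested. A second Masp2 probe set gave -5.30. Masp1, its partner protease, differed by -5.07 on the probe set used. The other 4 Masp1 probe sets gave -0.80, -0.72, -0.53 and -0.13, and the mean over all 5 gave -1.45 with an adjusted p of 5.6e-06 (limma), so Masp1 was still called lower and the size of its difference rests on 1 probe set. Cfb and Cfi (factors B and I of the alternative route) differed by -5.04 and -5.05, and C4bp (C4b-binding protein) by -5.67. C2 (the protease of the classical C3 convertase) had log2 values of 7.19, 6.45, 6.54, 6.75 and 6.83 in carcinomas, against 9.65, 9.81, 9.64, 10.13 and 9.74 in untreated liver. The carcinoma arrays were close together and all below the untreated ones. C2 differed by -3.04 and C1s1, a protease of the C1 complex, by -2.86, and both were called lower. The other C2 probe sets gave larger differences, -4.21 and -4.11.

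The C1q chains ran the other way. C1qa had log2 values of 11.27, 10.07, 10.30, 11.02 and 10.64 in carcinomas, against 9.60, 8.76, 9.31, 9.90 and 8.77 in untreated liver. All carcinoma arrays were above all untreated ones, the only higher member without overlap among the 39, where 25.6% of all genes were higher without overlap. C1qa differed by 1.39 ± 0.30 (SE, adjusted p = 0.00036, limma) on the log2 scale. C1qb had 12.01, 9.62, 9.92, 11.35 and 10.59 in carcinomas, against 9.43, 8.72, 9.39, 9.92 and 8.68 in untreated liver, with carcinoma arrays 2 and 3 no higher than the highest untreated array. C1qb differed by 1.47 ± 0.38 (SE, adjusted p = 0.002, limma) on the log2 scale. C1qc had 9.85, 8.43, 8.92, 9.53 and 9.18 in carcinomas, against 8.69, 7.75, 8.53, 9.02 and 8.11 in untreated liver, and its ranges overlapped. C1qc differed by 0.76 ± 0.29 (SE, adjusted p = 0.028, limma) on the log2 scale, and the call was lost when the arrays were centred on their medians (0.54, adjusted p = 0.081, limma), quantile normalized (0.62, adjusted p = 0.079), or when untreated array 2 or 5, or carcinoma array 1 or 4, was left out (0.60 to 0.68, adjusted p of 0.065 to 0.087).

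Macrophage markers moved with C1q only in part. Over all genes, 31.5% were called higher and 37.7% lower in carcinomas. Of 16 markers without C1q, 6 were higher in carcinomas (among them Lyz2, by 2.03, and Ctss, by 1.68) and 6 were lower (among them the Kupffer cell markers Cd5l, by -4.02, Clec4f, by -3.63, and Vsig4, by -2.89, on the log2 scale). Their mean log2 value per array was 7.34 to 8.78 in carcinomas and 8.05 to 9.06 in untreated liver. The mean of the 3 C1q chains was 9.38 to 11.04 in carcinomas and 8.41 to 9.61 in untreated liver. The part of macrophage numbers in the C1q values was not tested.

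**Figure D3:**
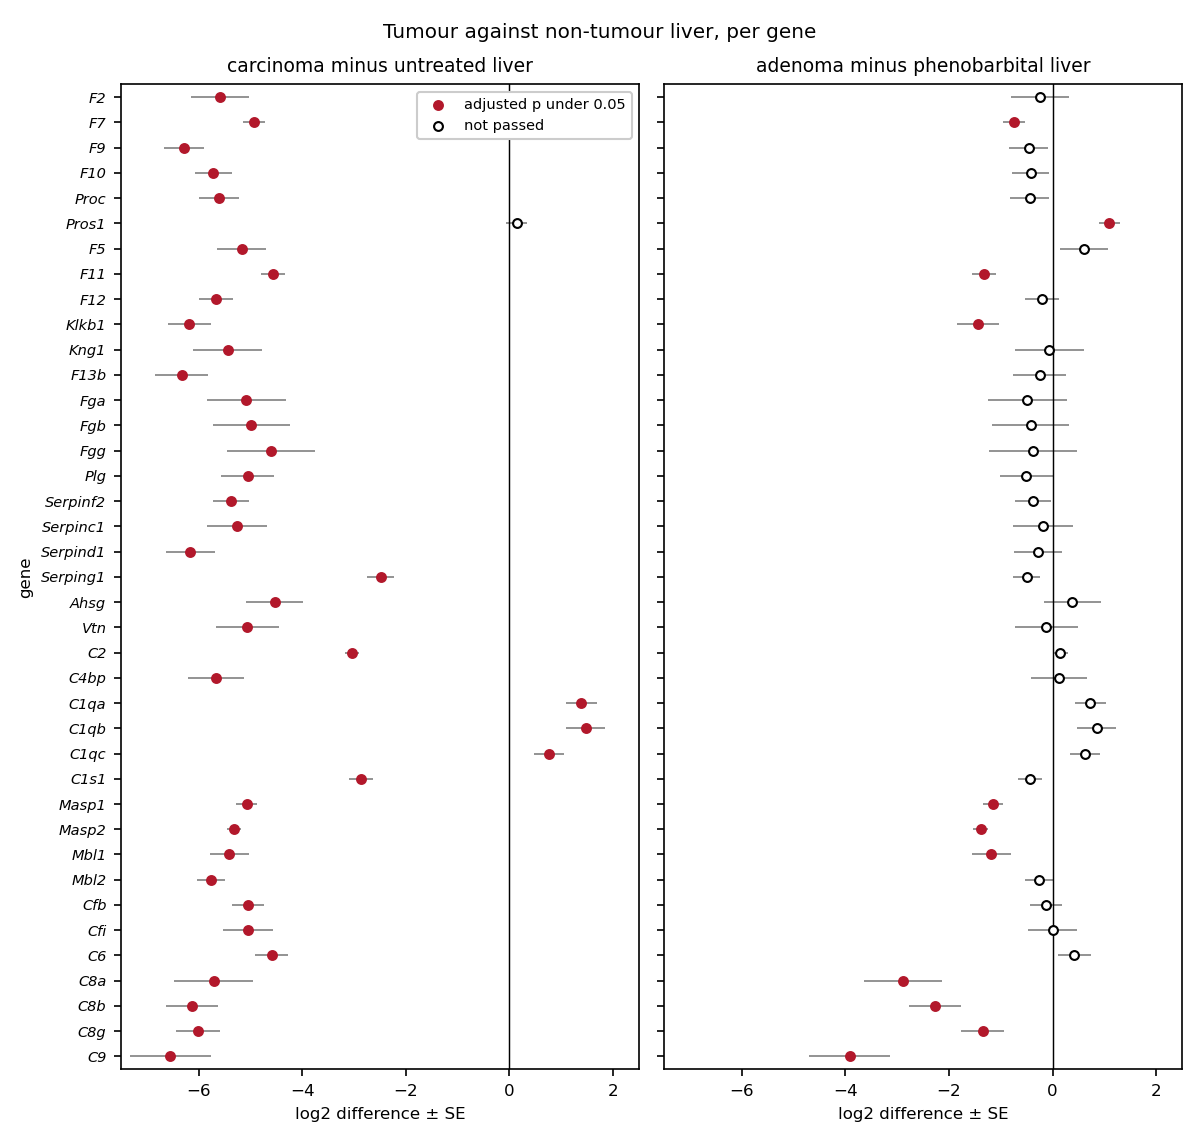
Points are log2 differences and lines their SE, for carcinoma minus untreated liver (left) and adenoma minus phenobarbital liver (right), 5 arrays per group; filled points passed an adjusted p of 0.05. On the left most genes sit between -6.55 and -4.53, and on the right C9, C8a and C8b reach -3.92, -2.89 and -2.27 while most others lie near 0.

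In adenomas fewer falls passed in the fit over all arrays. They lay mostly in terminal complement, the lectin route and the contact system. Of the 39 genes, 10 were lower (25.6%) and 1 was higher (2.56%) in adenomas than in phenobarbital liver, and 28 did not pass (limma). Over all genes, 11.3% were called lower and 13.5% higher. The median log2 difference was -0.37 over the members and -0.03 over all genes. Of the 10 called lower, 4 of 5 measured terminal genes, 3 of 4 lectin genes and 2 of 4 contact genes were included, and the tenth was F7. Of all members, 15 were lower without overlap, 8 of them in coagulation, against 9.03% of all genes. Which members passed depends on the fit, since in a fit of only these groups F10, Fga, Fgg, Plg and Proc passed too.

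C9 showed the largest fall. Its log2 values were 10.97, 6.47, 10.89, 7.43 and 7.55 in adenomas, against 12.56, 12.76, 12.58, 12.43 and 12.59 in phenobarbital liver. Adenoma arrays 1 and 3 lay highest, arrays 2, 4 and 5 between 6.47 and 7.55, and all were below the phenobarbital liver. C9 differed by -3.92 ± 0.78 (SE, adjusted p = 0.001, limma) on the log2 scale, which is 15.2-fold lower. C8a had 11.44, 9.61, 10.44, 6.68 and 7.26 in adenomas, against 11.74, 12.05, 11.82, 12.10 and 12.15 in phenobarbital liver, with adenoma array 1 closest to and array 4 farthest from the phenobarbital range. C8a differed by -2.89 ± 0.76 (SE, adjusted p = 0.0081, limma) on the log2 scale. C8b, its neighbour on chromosome 4, had 8.97, 8.74, 9.23, 7.43 and 5.46 in adenomas, against 10.12, 10.32, 10, 10.37 and 10.38 in phenobarbital liver, with array 5 lowest. C8b differed by -2.27 ± 0.50 (SE, adjusted p = 0.0023, limma) on the log2 scale. C8g had 11.78, 11.43, 11.79, 11.96 and 12.82 in adenomas, against 13.29, 13.33, 13.33, 13.22 and 13.36 in phenobarbital liver. It differed by -1.35 (adjusted p = 0.023, limma), and without adenoma array 2 its adjusted p was 0.057. The terminal gene C6, at 11.64, 10.41, 10.69, 9.46 and 10.19 in adenomas against 9.74, 10.13, 9.90, 10.18 and 10.33 in phenobarbital liver, did not pass and its groups overlapped.

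**Figure D4:**
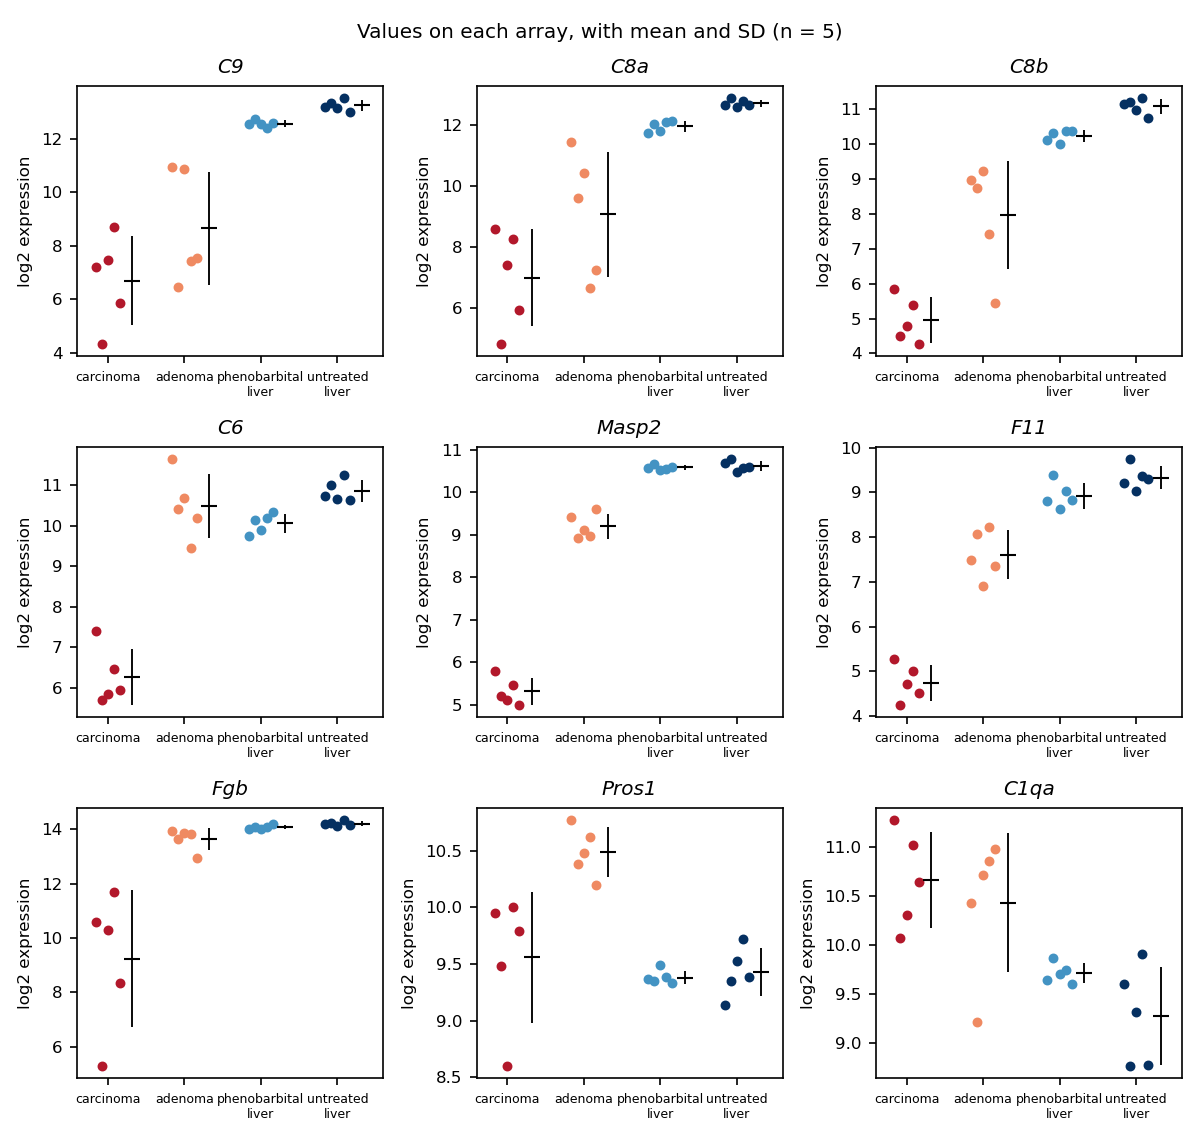
Log2 expression of 9 members on each array (points), with mean and SD (n = 5) beside them, for carcinomas, adenomas, phenobarbital liver and untreated liver. The adenoma points of C9, C8a and C8b are strung out below tight non-tumour groups, and those of Pros1 and Masp2 are close together. Fgb in adenoma array 5 lies at 12.95 and C1qa in adenoma array 2 at 9.21, each below the other adenoma arrays. The vertical axes differ between panels and do not start at 0.

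The promoters of C9, C8a, C8b, Fga and Fgb are shown as examples. C9, C8a and C8b were low in both tumour kinds, while Fga and Fgb passed the test in carcinomas and not in adenomas in the fit over all arrays. The sequences are the 250 bases before each gene's start, read 5′ to 3′ on the gene's strand, from RefSeq on mouse build GRCm38.p6. Capitals mark GTTAAT, a core of HNF1 motifs, and CAAAGT, a core of HNF4 motifs, on either strand. Both factors drive many hepatocyte genes.
C9, chr15:6445096-6445345, plus strand: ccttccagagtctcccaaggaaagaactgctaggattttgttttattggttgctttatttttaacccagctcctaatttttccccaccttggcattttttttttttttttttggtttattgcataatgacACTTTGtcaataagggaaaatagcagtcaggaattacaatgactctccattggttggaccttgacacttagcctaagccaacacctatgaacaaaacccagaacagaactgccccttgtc
C8a, chr4:104876399-104876648, minus strand: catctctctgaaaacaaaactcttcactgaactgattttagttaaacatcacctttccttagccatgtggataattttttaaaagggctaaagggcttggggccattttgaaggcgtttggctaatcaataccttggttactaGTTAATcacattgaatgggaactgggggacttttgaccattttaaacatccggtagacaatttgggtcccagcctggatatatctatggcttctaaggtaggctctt
C8b, chr4:104766067-104766316, plus strand: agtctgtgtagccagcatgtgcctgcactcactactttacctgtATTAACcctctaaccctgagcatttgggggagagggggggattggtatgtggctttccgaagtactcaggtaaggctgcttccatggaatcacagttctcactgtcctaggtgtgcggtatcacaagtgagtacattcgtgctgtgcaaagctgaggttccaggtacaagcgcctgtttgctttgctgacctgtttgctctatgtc
Fga, chr3:83025903-83026152, plus strand: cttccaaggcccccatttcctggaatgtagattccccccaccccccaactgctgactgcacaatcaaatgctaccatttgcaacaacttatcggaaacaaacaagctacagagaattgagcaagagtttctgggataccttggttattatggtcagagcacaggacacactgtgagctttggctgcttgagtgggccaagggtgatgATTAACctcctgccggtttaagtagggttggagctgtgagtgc
Fgb, chr3:83049864-83050113, minus strand: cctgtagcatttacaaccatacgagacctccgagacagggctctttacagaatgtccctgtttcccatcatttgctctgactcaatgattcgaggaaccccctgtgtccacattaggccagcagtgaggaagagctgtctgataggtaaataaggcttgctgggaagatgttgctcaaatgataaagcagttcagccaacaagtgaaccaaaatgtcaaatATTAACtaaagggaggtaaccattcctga
Over windows of 300 bases, from 250 before to 50 after the start, 30 members had 32 windows in the table. GTTAAT was in 8 of these (25.0%) and in 7.1% of all 32851 windows, and CAAAGT was in 7 (21.9%) and in 14.4% of all. CCAAT (25.0% against 37.4%), the C/EBP motif core TTGCGC (6.25% against 6.49%), the TCF/LEF core CTTTGA (15.6% against 16%) and the TATA box TATAAA (6.25% against 13.6%) were also counted, on both strands. CTTTGA and CAAAGT can share letters when read on opposite strands. C8g was also called lower in both tumour kinds, and Fgg passed in carcinomas and not in adenomas in the fit over all arrays. Their windows and that of C6 held neither GTTAAT nor CAAAGT and are not shown above. A match is a description of letters and not a site.

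Among lectin and contact genes, Masp2 had log2 values of 9.41, 8.93, 9.11, 8.97 and 9.60 in adenomas, against 10.57, 10.68, 10.53, 10.56 and 10.61 in phenobarbital liver. All adenoma arrays lay below the lowest phenobarbital one, with a narrow spread of their own. Masp2 differed by -1.39 ± 0.14 (SE, adjusted p = 7.8e-07, limma) on the log2 scale. Klkb1 had 10.94, 10.53, 9.64, 10.64 and 9.57 in adenomas, against 11.67, 11.70, 11.47, 11.79 and 11.91 in phenobarbital liver, with arrays 3 and 5 lowest and no overlap. Klkb1 differed by -1.44 ± 0.41 (SE, adjusted p = 0.014, limma) on the log2 scale. F11, its neighbour on chromosome 8, had 7.50, 8.08, 6.91, 8.22 and 7.35 in adenomas, against 8.80, 9.38, 8.62, 9.03 and 8.82 in phenobarbital liver, and differed by -1.32. Mbl1 had 11.26, 9.67, 10.97, 9.93 and 10.85 in adenomas, against 11.75, 11.80, 11.59, 11.68 and 11.73 in phenobarbital liver, with arrays 2 and 4 lowest. Mbl1 differed by -1.18, Masp1 by -1.15 and F7 by -0.74, and F7 was the one called member whose groups overlapped. Mbl1 lost its call when adenoma array 2, adenoma array 4 or phenobarbital array 2 was left out (adjusted p of 0.052 to 0.077), and Masp1 lost it over the mean of all its probe sets (-0.53, adjusted p = 0.079, limma). Mbl2, the other mannose-binding lectin, differed by -0.26 and did not pass.

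The fibrinogen genes and most clotting proteases did not pass in adenomas in the fit over all arrays. Fgb had log2 values of 13.94, 13.65, 13.86, 13.83 and 12.95 in adenomas, against 14.01, 14.07, 14, 14.07 and 14.18 in phenobarbital liver. The adenoma arrays were lower without overlap, array 5 lowest, and the log2 difference was -0.42 ± 0.74 (SE, adjusted p = 0.73, limma). F10, Fga, Fgg, Plg and Proc also lay lower without overlap and did not pass when all 4 groups shared 1 spread. In a fit of only the adenoma and phenobarbital-liver arrays these 5 passed, and 15 members were called lower, against 11.3% of all genes. F5, the cofactor, had 12.70, 12.82, 11.96, 12.83 and 12.50 in adenomas, against 11.85, 12, 11.99, 11.94 and 11.99 in phenobarbital liver, and its difference of 0.61 did not pass in the fit over all arrays. In the fit of these groups alone F5 passed (adjusted p = 0.013, limma), as C1qb did (0.85, adjusted p = 0.029), where 12.9% of all genes were called higher.

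Pros1 was the only member higher in adenomas in the fit over all arrays. Its log2 values were 10.77, 10.38, 10.48, 10.62 and 10.20 in adenomas, against 9.37, 9.35, 9.49, 9.39 and 9.33 in phenobarbital liver. Every adenoma array lay above every phenobarbital one, where 10.4% of all genes were higher without overlap. Pros1 differed by 1.10 ± 0.20 (SE, adjusted p = 0.00037, limma) on the log2 scale, which is 2.15-fold higher. C1qa had 10.43, 9.21, 10.71, 10.85 and 10.98 in adenomas, against 9.64, 9.86, 9.70, 9.74 and 9.60 in phenobarbital liver, and array 2 alone lay below the phenobarbital values. C1qa differed by 0.73 ± 0.30 (SE, adjusted p = 0.08, limma) on the log2 scale, and C1qb and C1qc differed by 0.85 and 0.62 without passing. With array weights C1qa and C1qb passed (adjusted p of 0.032 and 0.041), and with the replicate block C1qa did (0.043). Without adenoma array 2, the 3 chains passed at 1.03, 1.13 and 0.90 (adjusted p of 0.004, 0.03 and 0.013, limma), which brought the members called higher to 4. C1s1 was called lower without adenoma array 4 (-0.64, adjusted p = 0.029). Of the 16 macrophage markers 4 were higher and 5 lower in adenomas, beside 13.5% and 11.3% of all genes. The mean of these markers was 7.92 in adenoma array 2 against 8.72 to 9.41 in the other adenoma arrays.

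Between phenobarbital liver and untreated liver the members differed by -0.85 to 0.44 on the log2 scale. No member passed in the fit over all arrays (limma), where 0.203% of all genes were called higher and 0.022% lower. In that fit all 4 groups shared 1 spread, while the median SD of members was 1.24 in carcinomas and 0.0792 in phenobarbital liver. There, 1 member, C6, had an unadjusted p under 0.05 (0.024, limma), against 2.43% of all genes in the lower direction. The median log2 difference was -0.09 over the members and 0.0 over all genes. C6, C8a, C8b, C9, Ahsg and Vtn were lower without overlap, where 2.27% of all genes were. C6 had 9.74, 10.13, 9.90, 10.18 and 10.33 in phenobarbital liver, against 10.73, 11, 10.65, 11.25 and 10.64 in untreated liver. C9 had 12.56, 12.76, 12.58, 12.43 and 12.59 in phenobarbital liver, against 13.20, 13.37, 13.17, 13.53 and 13.01 in untreated liver. C8b had 10.12, 10.32, 10, 10.37 and 10.38 in phenobarbital liver, against 11.15, 11.22, 10.98, 11.32 and 10.76 in untreated liver. The difference of means in C9, -0.68, was small beside that in either tumour kind. In size it exceeded the range within each group, 0.33 in phenobarbital liver and 0.52 in untreated liver. In a fit of these 2 groups alone, C6, C8a, C8b and C9 passed at -0.80, -0.75, -0.85 and -0.68 (adjusted p of 0.017, 0.0024, 0.004 and 0.0062, limma), where 0.467% of all genes were called lower.

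Between the tumour kinds, 36 of 39 members were higher in adenomas than in carcinomas, all but the 3 C1q chains, where 33.7% of all genes were called higher (limma). The median log2 difference was 4.48 over the members and 0.1 over all genes. F13b differed most, by 6.18, with F9 and C4bp at 5.81, Serpind1 at 5.75 and F5 at 5.61. F13b had 11.89, 12.31, 11.58, 12.02 and 11.47 in adenomas, against 7.50, 3.32, 6.26, 6.74 and 4.54 in carcinomas, a gap with no overlap. C4bp (an inhibitor of the classical and lectin routes) had 12.88, 13.23, 13.06, 12.80 and 12.54 in adenomas, against 8.88, 4.37, 7.80, 8.24 and 6.15 in carcinomas, and Serpind1 had 11.64, 12.09, 11.66, 12.08 and 11.29 in adenomas, against 7.29, 3.71, 6.39, 7.44 and 5.18 in carcinomas. In both genes the adenoma arrays were close together and the carcinoma arrays far apart. C8a and C9 differed least among the terminal genes, by 2.08 (adjusted p = 0.023) and 1.95 (adjusted p = 0.037), and with C8b they were the 3 called members whose groups overlapped. Their calls were lost in a fit of the tumour arrays alone (adjusted p of 0.11 and 0.14) and when carcinoma array 2 or 5, or adenoma array 1 or 3, was left out (1.49 to 1.81 for C8a and 1.36 to 1.74 for C9). Without overlap, 33 members were higher, against 21.8% of all genes. Masp1 differed by 4.01 on the probe set used and by 0.14, 0.27, 0.44 and 0.1 on the others, none of which passed. The mean over all Masp1 probe sets gave 0.99 (adjusted p = 0.00042, limma).

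Whether the tumour-minus-liver difference itself differed between the adenoma and carcinoma settings was tested as the adenoma difference minus the carcinoma difference. It was higher for 35 of 39 members (limma, 23.2% of all genes), with a median of 4.66 over the members. C9 did not pass (2.63, adjusted p = 0.058), nor did C1qa (-0.67), C1qb (-0.62) and C1qc (-0.14). C9 passed when carcinoma array 4 or adenoma array 2, 4 or 5 was left out (2.91 to 3.18). It also passed with dim genes removed (2.63, adjusted p = 0.048), arrays centred (2.77, 0.038) or quantile normalized (2.67, 0.048), array weights (3.64, 0.0019) and the replicate block (2.63, 0.044), so its call depends on the setting. C8a passed at 2.83 and lost its call without untreated array 2 or 4, phenobarbital array 1 or 3, carcinoma array 2 or 5, or adenoma array 1, 2 or 3 (2.24 to 2.81, adjusted p of 0.051 to 0.07). For Pros1, which passed, the adenoma difference was 1.10 and the carcinoma difference 0.14. Masp1 gave 3.92 on the probe set used and 0.13 to 0.25 on its others, none of which passed. The mean over all Masp1 probe sets gave 0.92 (adjusted p = 0.015, limma). Diet and tumour stage cannot be told apart in this test.

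Other genes of the 2 systems moved in both directions in carcinomas. On a list of 38 further coagulation genes, 35 were measured. In carcinomas against untreated liver, 37.7% of all genes were called lower and 31.5% higher. Of the 35 list genes, 24 were lower and 7 higher. Those lower were led by Proz (protein Z, at -6.22), Hgfac (at -5.81), Tfpi2 (at -5.76) and Hrg (histidine-rich glycoprotein, at -5.71). Those higher included Plat (tissue plasminogen activator, at 7.59), Anxa2 (annexin A2, a receptor for plasminogen and its activator, at 4.13), Thbd (thrombomodulin, which lets thrombin activate protein C, at 3.79) and Tfpi (tissue factor pathway inhibitor, at 2.98). In adenomas 7 of the 35 genes were higher than in phenobarbital liver, again with Plat (4.86) and Anxa2 (2.93). The 4 that were lower included F8 (factor VIII, at -1.25). Over all genes, 13.5% were called higher and 11.3% lower in adenomas.

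Of 24 measured genes on a list of 34 further complement genes, 16 were lower and 3 higher in carcinomas. The shares over all genes were 37.7% lower and 31.5% higher. Hc (the fifth component) differed by -5.93 and Cpn1 (the catalytic subunit of carboxypeptidase N, which trims anaphylatoxins) by -6.10. The 3 that were higher were C3ar1, Itgb2 and Cd93, at 1.45, 0.93 and 0.76. In adenomas 4 were higher, among them Cd93 (2.38), and 5 were lower, with Colec10 (a collectin of the lectin route, at -3.01) lowest. There, 13.5% of all genes were called higher and 11.3% lower. No gene of either list passed between phenobarbital liver and untreated liver. The medians were -1.94 and -0.64 in carcinomas and -0.06 and -0.16 in adenomas for the coagulation and the complement list, beside -0.12 and -0.03 over all genes.

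Members that adjoin in RefSeq gene order had the same direction in carcinomas. Since 35 of the 36 members outside C1q were lower, members that do not adjoin mostly shared it too, and this says nothing about gene order. Fga, Fgb and Fgg fell together in carcinomas, as did F7 and F10, F11 and Klkb1, C8a and C8b, and Cfb and C2, and the C1q chains rose together. In adenomas F7 passed in the fit over all arrays while F10, at its side, did not. In the fit of only the adenoma and phenobarbital-liver arrays F10 passed (-0.42, adjusted p = 0.018, limma). F10 was lower in adenomas without overlap, whereas the groups of F7 overlapped.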

How the data were processed

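Values for each probe set were used as the authors deposited them, on a log2 scale, and RMA is named in the submitters' processing notes without a version. RMA corrects background, aligns the arrays' distributions and summarises probes, so a shift of all genes would be lost and folds of dim genes shrink. The table held 45037 probe sets on 20 arrays, 34945 with a single symbol, giving 18193 genes by the highest-mean probe set. Array medians were 5.52 to 5.63. Groups were compared in 1 limma fit (lmFit and eBayes, version 3.58.1 in R 4.3.3) of 4 group means with 16 residual degrees of freedom, two-sided, adjusted by Benjamini-Hochberg over all genes at 0.05. The fit was also run on simulated data, which gave each gene the same spread in all groups. The members here did not have that, so the simulation does not cover their unequal spread. The number of arrays limits precision. Members and lists were chosen with earlier results of these data known. All members may be named. Array values are given for the 5 called members of largest absolute log2 difference in each tumour kind against its non-tumour liver. They are also given for called members against the main direction, the C1q chains and some chosen after their values were seen. F9 in adenomas and F5 in carcinomas, among the largest differences between the tumour kinds, are not given by array. Of other lists, up to 4 called genes each way were named. Alternatives covered probe-set choice, dim genes, scaling, array weights, replicate block, groups fitted and each array left out. Array weights, replicate numbers and left-out arrays are treated in the closing section.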

Additional observations from a re-analysis of the deposited data

Results flagged for a closer look

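In 10 of 156 groups of a member's 5 arrays, 1 array lay far from the other 4 by Dixon's test at its 95% level, and chance gives about 1 in 20. Adenoma array 5 was lowest for Fgb (12.95) and Kng1 (13), adenoma array 4 was lowest for Vtn (12.71) and highest for Cfi (13.42), and adenoma array 2 was lowest for C1qb (9.33) and C1qc (8.26). In phenobarbital liver, array 2 was highest for C4bp (12.89) and array 3 for C1qb (9.87). In untreated liver, array 4 was highest for Serpinc1 (14.36) and array 3 lowest for Klkb1 (11.69). All of these are log2 values.

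The difference between adenoma and phenobarbital liver minus that between carcinoma and untreated liver passed for 35 members (limma, adjusted p under 0.05). On the log2 scale it was, for coagulation genes, F2 5.36, F5 5.77, F7 4.19, F9 5.82, F10 5.30, F11 3.25, F12 5.45, F13b 6.08, Fga 4.59, Fgb 4.55, Fgg 4.24, Plg 4.54, Proc 5.17, Pros1 0.97, Serpinc1 5.08, Serpind1 5.88, Serpinf2 5.01, Serping1 1.99, Klkb1 4.74, Kng1 5.39, Ahsg 4.91 and Vtn 4.94. For complement genes it was C2 3.19, C6 5.01, C8a 2.83, C8b 3.86, C8g 4.66, Cfb 4.93, Cfi 5.05, C4bp 5.78, Masp1 3.92, Masp2 3.93, Mbl1 4.24, Mbl2 5.52 and C1s1 2.43. For Masp1 the mean over all its probe sets gave 0.92. A positive value says that the adenoma difference lay above the carcinoma difference. Diet and tumour stage cannot be told apart in it.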

How the results depend on the processing

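The count of members lower in carcinomas was 35 without each array in turn, and that of members higher ranged over 2 to 4. Leaving out each array in turn gave 8 to 10 members lower in adenomas than in phenobarbital liver, 1 to 4 higher, 34 to 36 higher in adenomas than in carcinomas, and 34 to 36 for the difference of the tumour effects. Against 1 member higher in adenomas, array weights gave 3, a fit of only the groups compared gave 3 and the replicate block gave 2. The labels do not say that a replicate number marks a shared animal. Correlations of deviations over 30 pairs of same-numbered arrays ran from -0.115 to 0.131, and 1 was over 0.1. Such correlations cannot decide whether animals were shared, since tissues of 1 animal need not deviate alike. For phenobarbital liver against untreated liver, a fit of only these groups called 4 members lower, against 0, and 278 of all genes, against 41; array weights called 218 and leaving out 1 array 23 to 51. No called member changed direction under the alternatives run. Centring moved the median of all genes in carcinomas to -0.34. Leaving out untreated arrays 3 and 4 together, an alternative chosen after seeing the data, lost the call for C8a in the difference of the tumour effects (adjusted p = 0.069). The causes were not tested. Probes near the array's background understate folds, and how far was not tested. Cpb2 and C3 were not analysed here.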
